A study of Neurospora crassa with 22 samples.

Results

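The mRNAs recovered with GUL-1 from Neurospora crassa hyphae under standard growth conditions were described by comparing pull-downs of the GUL-1-GFP strain with pull-downs of the non-tagged wild-type. Of the 22 RNA-seq libraries of the series, 6 belong to this comparison, 3 per strain. The members were chosen by strain, fraction and treatment as labelled, and no input library was in the comparison. Both strains were grown in Vogel's sucrose medium without any added agent, and beads that capture GFP were used on extracts of each. The GUL-1-GFP strain carries gul-1-sgfp under the ccg-1 promoter at the his-3 locus and has its own gul-1 gene replaced by hph (deltagul-1), so that the tagged copy is the only one and is driven by a promoter other than its own. The wild-type has its native gul-1 and no GFP, so that its libraries hold whatever RNA stays on the beads without a tagged protein. The remaining pull-downs used here for reference came from the same strains after Nikkomycin Z, an inhibitor of chitin synthases, had been added to the cultures.

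GUL-1 is the N. crassa homolog of Ssd1, an RNA-binding protein of Saccharomyces cerevisiae that is regulated by the NDR kinase Cbk1, the yeast counterpart of COT-1. In yeast, Ssd1 is known for binding mRNAs of cell wall proteins and wall-remodelling enzymes and for restraining their translation. The fungal wall itself is a network of glucans and chitin covered by mannosylated proteins, many of them held by glycosylphosphatidylinositol (GPI) anchors. A pull-down compared with an untagged strain shows which transcripts stay with the tagged protein more than with the beads alone, provided that the transcript is about as abundant in both strains.

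A short motif found in some yeast Ssd1 targets is shown first, and its part in retention by GUL-1 was not tested. The study scanned N. crassa transcripts for it, and the sites listed there were read for the 363 genes of that table. In the DNA alphabet and from 5′ to 3′ on the transcript strand, the complete motif reads attcattcctt or agtcattcctt. The lines below give the site of the 8 transcripts with the smallest p among the motif-bearing transcripts higher in the GUL-1-GFP pull-down. After them come the 2 higher transcripts with a complete match, ghx-2 (NCU05404) and NCU01697, and gul-1 itself, which were added for their site. A capital letter marks the base that differs from the motif.
NCU06509: attcTttcctt
NCU00811: agCcattcctt
NCU08090: agtcattcTtt
NCU05789: atAcattcctt
tah-3: agAcattcctt
dpm: atCcattcctt
NCU00432: agtcattcAtt
NCU01477: attcattcGtt
ghx-2: attcattcctt
NCU01697: attcattcctt
gul-1: agAcattcctt
The differing base stood at position 3, counted from 1 at the 5′ end, in NCU00811, NCU05789, tah-3, dpm and gul-1. It was the ninth base in NCU08090, NCU00432 and NCU01477.

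Libraries held 18053826 to 28372176 counts, of which most fell on rRNA, with 62.8% to 91.4% in pull-downs of GUL-1-GFP and 88.5% to 94.8% in those of the wild-type. Protein-coding genes received 900166 to 4075942 counts in the GUL-1-GFP and 257726 to 1171431 in the wild-type pull-downs. Levels below are normalised CPM (counts per 1000000 counts of the library, scaled with TMM), and the difference between strains is the log2 fold change (log2FC) of GUL-1-GFP over wild-type. In every library more features stood at exactly 5 counts than at exactly 1, so that counts are not independent molecules and any floor or interval covers counting error only. The hyphal markers hex-1, actin, beta-tubulin and pma-1 were present in all 6 libraries. Levels of hex-1, the Woronin body protein, were 24.5, 35.6 and 23.5 CPM in GUL-1-GFP and 39, 32.3 and 33.8 in wild-type. Of the 4 conidiation markers, con-6 did not pass the filter on low counts, and eas, the hydrophobin of conidia, varied within both strains, at 30.6, 0.313 and 0.563 CPM against 98.7, 0.595 and 62.1. None of the 7 tested markers passed the test.

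A transcript was called higher at an adjusted p (edgeR's quasi-likelihood test, Benjamini-Hochberg over all features tested) under 0.05 and a log2FC over 2, and lower at a log2FC under -2. Of 6780 features tested, 219 were higher in the GUL-1-GFP pull-down (3.23%), 218 of them protein-coding. No transcript was called lower, although 9 had an unadjusted p under 0.05 and a log2FC under -2, and DESeq2 called 3. Without GUL-1-GFP replicate 1, 45 were lower and 217 higher. Over the 6 libraries left out in turn, the number of higher transcripts lay between 160 (without wild-type replicate 3) and 246 (without wild-type replicate 2). The median log2FC of the 219 was 3.21, against -0.03 over all features, and 67 had a log2FC above 4. In 216 of the 219 every GUL-1-GFP library stood above every wild-type library, which held for 10.3% of all features. The 219 were called on these same libraries, so that this separation largely follows from the choice. The same holds where single higher transcripts below are said to separate the strains. A name or symbol was at hand for 109 of the 219. The remainder carry no annotation in the sources used here and include several of the most abundant transcripts.

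**Figure D1:**
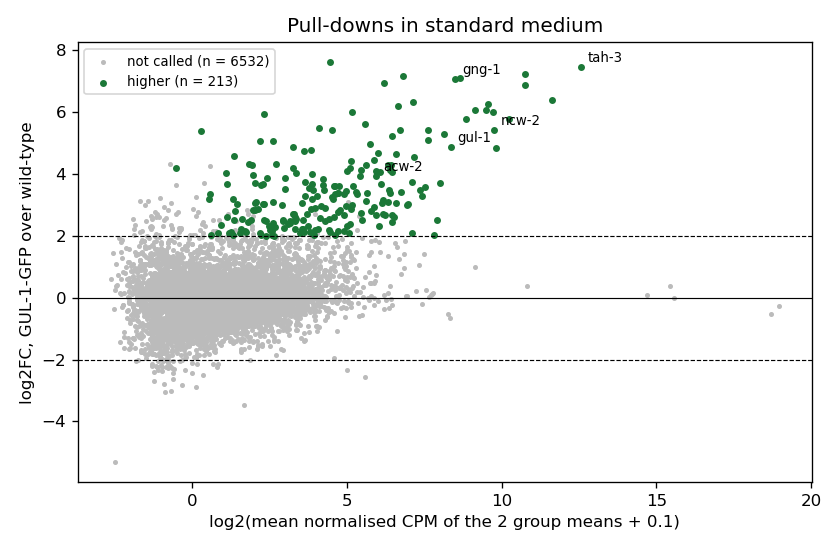
Each point is a feature tested, with its mean level on the x axis (log2 of the mean normalised CPM) and its log2FC of GUL-1-GFP over wild-type pull-down on the y axis; dashed lines mark log2FC of 2 and -2, and features at or under 3 counts in every wild-type library are left out. The 213 green points are called higher and reach from the weakly to the most strongly represented mRNAs, with none called lower.

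The number of transcripts called depended on the scaling. With counts on protein-coding genes as library size, 82 transcripts were higher and 1093 lower, and the median log2FC of all features was -1.58. With total counts as library size, 239 were higher and 0 lower, and the median was 0.88. All 219 had a log2FC above 0 under each of 19 alternative fits. Of them, 62 were called higher in every one of these fits, gng-1, kal-1, acw-2, acw-7, ncw-2, dpm and gul-1 among them.

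The share of protein-coding counts that fell on the 219 transcripts shows the size of the difference. It was 58.0%, 69.4% and 66.0% in pull-downs of GUL-1-GFP and 6.76%, 8.66% and 5.04% in those of the wild-type, which is a description, since the transcripts were chosen on these libraries. The 6 pull-downs with Nikkomycin Z were not in the contrast but shared its filter, scaling and estimate of spread. With the 6 standard-medium libraries fitted alone, 136 of the 219 were called. Besides gel-3, gel-5 and gh16-1, those that then missed the threshold include prd-6, ccg-15, acw-9, NCU06781, NCU01648, NCU06198 and Prm1 (edgeR adjusted p = 0.0545 to 0.155). In the pull-downs with Nikkomycin Z the 219 transcripts received 75.1%, 68.1% and 72.9% in GUL-1-GFP and 8.39%, 9.05% and 8.09% in wild-type. The 10 most abundant of them alone took 30.1%, 49.6% and 45.7% against 1.3%, 2.45% and 0.746% in standard medium. A few mRNAs therefore made up a large part of what was recovered with GUL-1-GFP.

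The input libraries of the standard medium bear on whether these transcripts were also more abundant in the tagged strain. The 219 transcripts took 9.61% and 9.76% of protein-coding counts in the GUL-1-GFP inputs (exact 95% intervals 9.28 to 9.95 and 9.49 to 10.0) and 6.46% and 5.69% in the wild-type inputs (6.34 to 6.57 and 5.49 to 5.89). The inputs of the tagged strain were thus above those of the wild-type, by far less than the pull-downs were. These inputs are thin, with 30660 to 178300 protein-coding counts, and 1 further wild-type input with 59 such counts was left aside. For both tagged-strain inputs, title and fraction label disagree (pull-down and input), and the fraction label was followed. For a single transcript, more retention by GUL-1 and a higher mRNA level in the tagged strain cannot be told apart from the pull-downs alone.

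**Figure D2:**
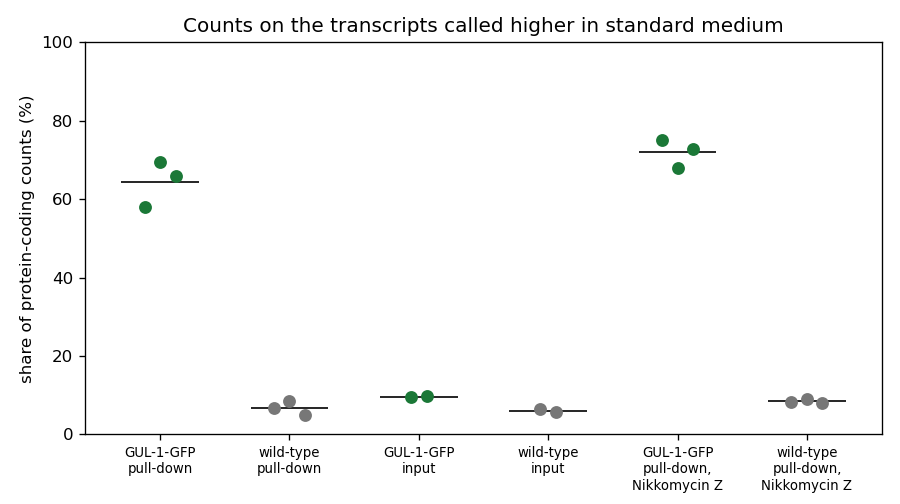
Each point is 1 library and gives the share of its protein-coding counts (y axis, percent) on the 219 transcripts called higher, by strain, fraction and treatment (x axis); black lines are group means. GUL-1-GFP pull-downs sit between 58.0% and 75.1%, and all other libraries lie below 10%.

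The transgene was checked at its own locus. Levels of gul-1 were 159, 811 and 926 CPM with GUL-1-GFP and 6.38, 37.4 and 21.0 with the wild-type (log2FC 4.87 ± 0.76 SE, edgeR adjusted p = 0.00099). In the inputs, on a CPM scale counted over protein-coding genes alone, gul-1 stood at 3327 and 12150 in GUL-1-GFP and at 179.5 and 792.6 in wild-type. In the pull-downs the same measure gave 2688, 8633 and 9980 for GUL-1-GFP and 275.5, 1281 and 787.1 for wild-type. The transcript was thus high in the tagged strain in inputs and pull-downs alike, and its log2FC cannot be read as retention. The donor of the promoter, ccg-1, and the insertion locus, his-3, did not pass the test, with log2FC of -0.72 and 0.41. The sign of both turned with single libraries left out, ccg-1 lying between -2.40 without GUL-1-GFP replicate 1 and 0.61 without wild-type replicate 1, and his-3 between -0.32 without GUL-1-GFP replicate 3 and 0.87 without GUL-1-GFP replicate 1.

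Heterotrimeric G protein transcripts gave the smallest p of the whole comparison. These proteins relay signals from membrane receptors, the alpha subunit binding GTP and the beta and gamma subunits forming a stable pair. The gamma subunit gng-1 (NCU00041) stood at 800.1, 707 and 659 CPM in GUL-1-GFP and at 7.10, 5.09 and 3.98 in wild-type, 135-fold apart (log2FC 7.07 ± 0.48, edgeR adjusted p = 3.6e-06). Its partner, the beta subunit gnb-1, was at 34.8, 54.7 and 55.3 CPM against 3.95, 4.76 and 5.09 (log2FC 3.38 ± 0.39). Replicates of gng-1 agreed closely within each strain, and for both genes the strains were far apart. Of the 15 G protein signalling transcripts tested, 4 were higher, against 3.23% of all features, and the list's median log2FC was 0.32. With protein-coding counts as library size 2 were higher. The other 2 were ric8, an exchange factor for alpha subunits, at 4.78, 4.38 and 4.82 CPM against 0.988, 0 and 0.728, and the pheromone receptor pre-1, at only 314, 5 and 58 counts against 0, 0 and 4. ric8 falls outside the rule for named genes. NCU08343, which carries an RGS domain as found in proteins that switch alpha subunits off, was at 36.9, 39.6 and 48.1 CPM against 3.77, 5.42 and 3.91 (log2FC 3.25 ± 0.35).

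**Figure D3:**
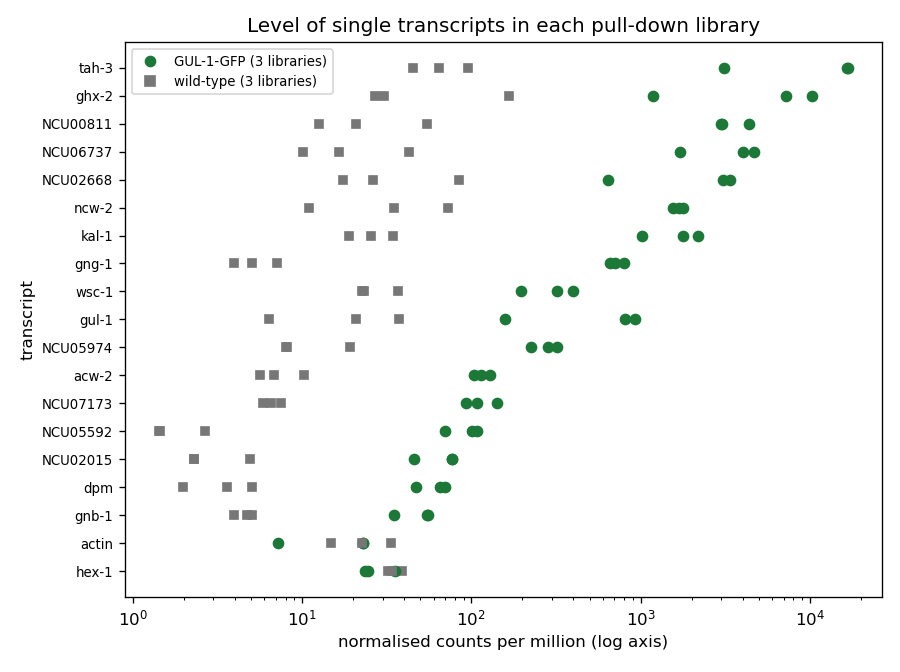
Normalised CPM (log x axis) of 17 higher transcripts and of the hyphal markers actin and hex-1 (y axis) in each of the 3 GUL-1-GFP (circles) and 3 wild-type (squares) pull-down libraries. The strains do not overlap in any of the 17 transcripts, while hex-1 and actin overlap; in tah-3, ghx-2, NCU02668 and gul-1 one GUL-1-GFP library lies well below the other 2.

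Structural proteins of the cell wall formed a second group. Of 20 tested cell wall proteins and wall sensors 5 were higher (25%, against 3.23% of all features), with a list median log2FC of 0.66. With protein-coding counts as library size 3 were higher and 3 lower. ncw-2 (NCU01752), a wall protein without an anchor, was the most abundant of them at 1778, 1683 and 1561 CPM against 35.0, 72.5 and 11 (log2FC 5.41 ± 0.67, edgeR adjusted p = 0.00015). The GPI-anchored acw-2 was at 129, 104 and 114 CPM against 10.2, 6.88 and 5.62 (log2FC 3.94 ± 0.41). For both, the spread among GUL-1-GFP libraries was small and the difference between strains many times larger. acw-7 reached a log2FC of 4.68 ± 0.65 and acw-9 one of 3.29 ± 0.69, the latter with a single high wild-type library (74.0 CPM against 9.34 and 12). The high library was replicate 2, while the call of acw-9 was lost without wild-type replicate 3 (edgeR adjusted p = 0.0596). The wall stress sensor wsc-1, a membrane protein that signals to the cell wall integrity pathway, was at 197, 396 and 320.4 CPM against 36.8, 23.1 and 22.7 (log2FC 3.47 ± 0.45). NCU00309, another transcript with a WSC domain, which was chosen after its values were seen, was at 34.9, 24.4 and 22.2 CPM against 1.17, 2.98 and 1.

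Enzymes that build and remodel glucan and chitin were also represented. Of 28 tested, 5 were higher (17.9%, against 3.23% of all features) and the median log2FC was 0.76, with 23 of the 28 above 0. With protein-coding counts as library size, 1 of the 28 was higher and 3 were lower. The higher members remodel or cut wall polymers. gel-3 and gel-5 encode beta-1,3-glucanosyltransferases, which elongate and branch glucan chains, and had log2FC of 2.52 ± 0.43 and 2.44 ± 0.57. gel-3 was the more abundant by far, at 234, 439 and 560.3 CPM against 64.5, 95.6 and 55.6, and gel-5 was low in wild-type, at 0.449 to 1.85 CPM. The GPI-anchored endoglucanase EglC (NCU09175) was at 265, 376 and 366 CPM against 19.1, 43.2 and 22.8 (log2FC 3.57 ± 0.47). gh76-5, of glycoside hydrolase family 76, was present at low levels with a log2FC of 4.30 ± 0.51. The mixed-linked glucanase gh16-1 had a log2FC of 3.07 ± 0.79 and its wild-type libraries spread widely, from 5.32 to 49.3 CPM. In edgeR, gh16-1 was not called without GUL-1-GFP replicate 2 or 3 or wild-type replicate 1 or 3 (adjusted p = 0.0884 to 0.143), and gel-5 not without GUL-1-GFP replicate 1 or wild-type replicate 1 or 3 (0.0524 to 0.148). With the 6 libraries fitted alone gel-3, gel-5 and gh16-1 missed the threshold (edgeR adjusted p = 0.0617, 0.0847 and 0.28).

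The polymer synthases themselves did not pass. Among 12 cell wall transcripts that the study names, and chose with these libraries in view, 5 were higher (41.7%, against 3.23% of all features). These were NCU02668, ghx-2, gel-3, NCU06781 and gel-5. The beta-1,3-glucan synthase NCU06871 was at 35.1, 155 and 214 CPM against 56.6, 118 and 63.1 and the chitin synthase chs-1 at 5.96, 8.55 and 11.6 against 7.55, 8.20 and 6.09. Their log2FC of 0.76 ± 0.52 and 0.26 ± 0.34 left the strains within or close to the spread between replicates. By contrast ghx-2, a glycosyl hydrolase with a complete Ssd1 motif, was at 1176, 10324 and 7228 CPM against 30.6, 166 and 27.0 (log2FC 6.39 ± 0.98, edgeR adjusted p = 0.00091). NCU02668, annotated as a cell wall synthesis protein, was at 643, 3084 and 3397 CPM against 17.5, 84.9 and 26.2 (log2FC 5.79 ± 0.80). In both, GUL-1-GFP replicate 1 was the lowest of its group and wild-type replicate 2 the highest of its own, and the strains still did not overlap. The glucanosyltransferase NCU06781 had a log2FC of 3.14 ± 0.69, and its call was lost without GUL-1-GFP replicate 3 or wild-type replicate 3 (edgeR adjusted p = 0.0565 and 0.0922). The paper lists NCU06871 among transcripts bound by GUL-1 in both media, and chs-1 among those bound in either or both. Its comparison also referred to the inputs, so that its measure is not the one used here.

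Secreted carbohydrate-active enzymes overlapped with the wall enzymes and gave 8 higher of 49 tested (16.3%, against 3.23% of all features). With protein-coding counts as library size 5 were higher and 8 lower. The secreted glucosidase NCU05789, which also carries a motif site, was at 1717, 824 and 792 CPM against 30.6, 11.9 and 6.91 (log2FC 6.08 ± 0.66). NCU05974, a glycosidase outside these lists, was at 224, 284 and 320.1 CPM against 8.09, 19.2 and 8.12 (log2FC 4.55 ± 0.50). Both separated the strains without overlap. gh61-3 had 85, 23 and 136 counts in GUL-1-GFP and 0 in each wild-type library, at least 13.9-fold higher when the wild-type is set to a floor of 3 counts per library.

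Transcripts for protein mannosylation and GPI anchoring gave 3 higher of 27 (11.1%, against 3.23% of all features), with a list median log2FC of -0.12. With protein-coding counts as library size 1 was higher and 7 were lower. Dolichol-phosphate mannose is the mannose donor for these reactions in the endoplasmic reticulum. The gene for the catalytic subunit of its synthase, dpm (NCU07965), was at 47, 65.4 and 69.8 CPM against 1.98, 5.09 and 3.59 (log2FC 4.09 ± 0.45, edgeR adjusted p = 5.4e-05). NCU05544, annotated as a further subunit of the same synthase and chosen after its values were seen, was at 44.4, 19.4 and 17.2 CPM against 2.79, 2.12 and 1.57 (log2FC 3.67 ± 0.46). The protein mannosyltransferase NCU01648 and the GPI transamidase subunit gpit-2 had smaller log2FC of 2.33 ± 0.47 and 2.61 ± 0.56. Among membrane transporters, 1 of 39 was higher (2.56%, against 3.23% of all features), the GDP-mannose transporter NCU06198 (log2FC 2.24 ± 0.42). All 3 of these smaller differences were no longer called without wild-type replicate 3 (edgeR adjusted p = 0.0669 for NCU01648, 0.0596 for gpit-2 and 0.0553 for NCU06198). NCU01648 was also lost without GUL-1-GFP replicate 3 (log2FC 1.78) and NCU06198 without GUL-1-GFP replicate 1 (1.90).

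Small GTPases and their regulators gave 2 higher of 16 (12.5%, against 3.23% of all features) with a list median log2FC of 0.90, 13 of the 16 lying above 0. Of the higher ones, ras-1, listed under its symbol bd, was at 34.3, 31.6 and 38.6 CPM against 5.12, 8.40 and 9.39 (log2FC 2.18 ± 0.36), and fell under the fold limit without wild-type replicate 1 (1.97) and with protein-coding counts as library size (0.62, edgeR adjusted p = 0.114). Its levels were tight within each strain. The Arf6 homolog NCU07173, a GTPase of membrane traffic, was at 143, 109 and 93.2 CPM against 7.55, 5.89 and 6.57 (log2FC 4.11 ± 0.46). It was 1 of 2 higher among 67 transcripts of secretion and vesicle traffic (2.99%, against 3.23% of all features). The second, the vesicle-associated membrane protein NCU06370, had 133, 14 and 55 counts and 0 in each wild-type library, at least 9.22-fold higher over the same floor. Its call was lost without GUL-1-GFP replicate 3 or wild-type replicate 3 (edgeR adjusted p = 0.0641 and 0.151). The palmitoyltransferase NCU02015, whose yeast counterpart Erf2 lipidates Ras proteins, was at 46.1, 76.7 and 77.3 CPM against 4.94, 2.31 and 2.30 (log2FC 4.40 ± 0.47).

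Transcripts of kinase pathways were counted next. Of 11 transcripts of the COT-1 kinase complex, 2 were higher (18.2%, against 3.23% of all features), gul-1 and mob-2a. The call of gul-1 is that of the transgene and cannot be read as retention. mob-2a, a coactivator of COT-1, was at 16.5, 8.87 and 12.8 CPM against 2.25, 3.84 and 2.05 (log2FC 2.24 ± 0.38). It fell under the fold limit without GUL-1-GFP replicate 1 (1.94) and with protein-coding counts as library size (0.76, edgeR adjusted p = 0.129). cot-1 itself had a log2FC of -0.01. Of 27 transcripts of MAP kinase cascades and cell fusion, 2 were higher (7.41%, against 3.23% of all features). These were the Ste12-like transcription factor pp-1 (log2FC 2.56 ± 0.42) and the fusion protein Prm1 (log2FC 2.35 ± 0.49). Prm1 was not called without GUL-1-GFP replicate 3 or wild-type replicate 3 (edgeR adjusted p = 0.0528 and 0.0734). pp-1 was also the 1 higher member of a list of 23 transcription factors (4.35%, against 3.23% of all features). That list is incomplete: the homeobox gene kal-1 and the C2H2 finger gene NCU03421 were higher and stood outside it (log2FC 5.99 and 5.06). Of 101 protein kinases and phosphatases, 2 were higher (1.98%, against 3.23% of all features). These were gul-1 by its annotation and prk-8, a MAK-type kinase, at 163, 265 and 346 CPM against 11.1, 27.9 and 18.8 (log2FC 3.74 ± 0.47). Of 18 listed signalling transcripts that the study names, again chosen with these libraries in view, 1 was higher (5.56%, against 3.23% of all features). It was NCU02049 (log2FC 3.36 ± 0.46). The paper also names pp-1, under another identifier, and pp-1 is not in this list. NCU02049, cot-1, os-4 and pp-1 are among those that the paper reported for cultures with Nikkomycin Z, so that a call in standard medium is not the same comparison. The MAP kinase kinase kinases mik-1 and os-4 were among 328 transcripts (4.84%) with an adjusted p under 0.05 and a log2FC above 0, but stayed under the fold limit, with log2FC of 1.97 ± 0.51 and 1.21 ± 0.30. Both missed the threshold without GUL-1-GFP replicate 2 or 3 or wild-type replicate 1 or 3 (edgeR adjusted p up to 0.162 and 0.157), and os-4 turned to -0.38 with protein-coding counts as library size. The paper lists mik-1 among transcripts bound in both media, from a comparison that also referred to the inputs. The osmosensor NCU08067, outside these lists, was at 86.4, 59.8 and 57.3 CPM against 4.76, 6.75 and 5.28 (log2FC 3.60 ± 0.38).

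**Figure D4:**
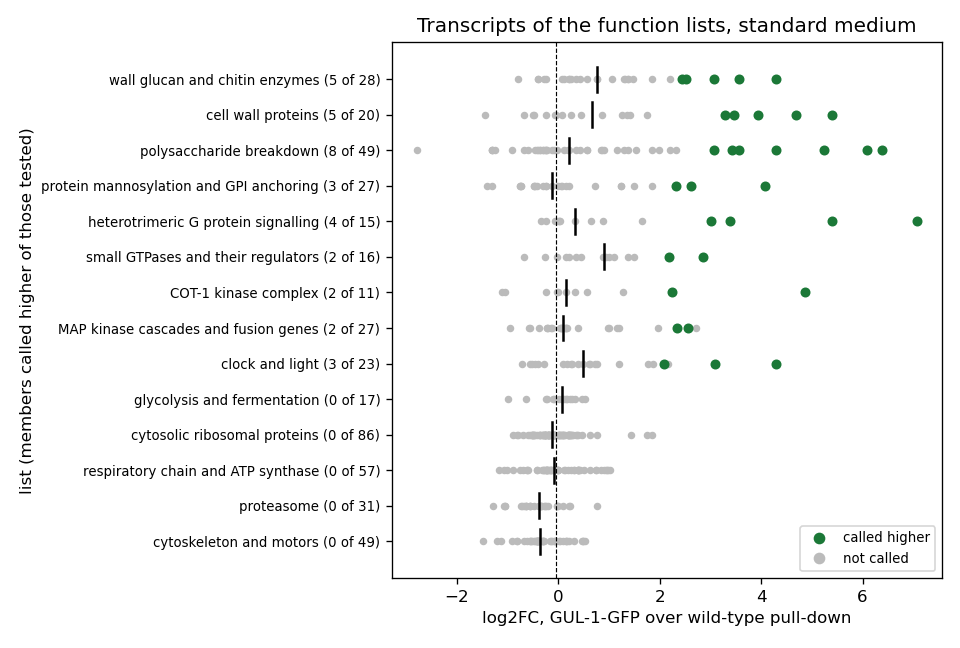
Each point is a tested transcript of a function list, with its log2FC on the x axis; green points are called higher, black bars are medians over all tested members of a list and the dashed line is the median of all features. Transcripts at or under 3 counts in every wild-type library are not drawn. The wall, G protein and polysaccharide lists have green points up to a log2FC of 7.07, while the lists of ribosomal proteins, the respiratory chain, the proteasome, glycolysis and the cytoskeleton have none.

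Clock and light genes gave 3 higher of 23 (13%, against 3.23% of all features). They were ccg-6 (log2FC 3.09 ± 0.40), ccg-15 (2.09 ± 0.42) and prd-6, the homolog of the nonsense-mediated decay helicase UPF1 (4.29 ± 0.71). prd-6 stood at 12.8, 119 and 149 CPM against 3.23, 7.21 and 3.87, so that 1 GUL-1-GFP library was far below the others. Single members were higher in 3 metabolic or organelle lists, tca-4, a subunit of isocitrate dehydrogenase, of 26 TCA cycle transcripts, the oxysterol-binding protein NCU08578 of 29 for lipid and sterol synthesis, and pex20 of 20 for the peroxisome. With so few members these shares are close to the 3.23% of all features. Without a single library, tca-4 (wild-type replicate 1 or 3), NCU08578 (GUL-1-GFP replicate 1) and ccg-15 (GUL-1-GFP replicate 3 or wild-type replicate 3) were not called, with log2FC down to 1.95, 1.94 and 1.87 and edgeR adjusted p up to 0.0571, 0.00277 and 0.0715.

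The lists of general cell functions had no member called higher. This held for 86 cytosolic and 21 mitochondrial ribosomal proteins, 41 translation factors, 29 aminoacyl-tRNA synthetases and 110 RNA-binding and RNA-processing proteins. It held as well for 57 transcripts of the respiratory chain and ATP synthase, 29 of mitochondrial import, 17 of glycolysis and fermentation, 61 of amino acid metabolism, 31 of the proteasome and 34 peptidases. Also without a call were 49 transcripts of the cytoskeleton and motors, 48 of histones and chromatin, 31 chaperones, 29 of DNA repair, 24 of redox defence and 14 of the vacuolar ATPase. List medians lay between -0.45 for the vacuolar ATPase and 0.08 for glycolysis. At a background of 3.23%, a single list of 14 to 110 transcripts would hold few calls in any case. That reason does not cover all of these lists as a set, for which the absence of calls was not tested. The lists also do not hold every transcript of a function. The endothiapepsin NCU02059 and NCU10907, annotated as PEPAd, were higher (log2FC 6.32 and 4.03) but stood outside the peptidase list. Likewise gul-1 and prd-6, both higher, stood outside the list of RNA-binding and RNA-processing proteins.

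Several of the most abundant transcripts of the GUL-1-GFP pull-downs have no function that these lists describe. tah-3 (NCU03686), in which a site with the same mismatch as in gul-1 was found, took more counts over the 12 pull-downs than any other protein-coding gene, at 3129, 16477 and 16699 CPM against 95.8, 64.7 and 45.4 (log2FC 7.46 ± 0.82, edgeR adjusted p = 5.4e-05). In the inputs, on a CPM scale counted over protein-coding genes alone, tah-3 stood at 3098 and 4255 in GUL-1-GFP and at 1677 and 1466 in wild-type. In the pull-downs, NCU06737 was at 1699.5, 4683 and 4018 CPM against 16.4, 42.9 and 10.2. NCU00811 was at 4392, 2975 and 3013 against 20.8, 55.0 and 12.6. The strains did not come near each other in the pull-downs for any of these transcripts. Also unannotated, NCU06509, NCU00729 and NCU05023 followed gng-1 with the next smallest p, at log2FC of 7.11 ± 0.58, 5.42 ± 0.46 and 4.96 ± 0.42. Of annotated transcripts outside the lists, kal-1, a homeobox transcription factor, was at 1023, 2193 and 1783 CPM against 25.5, 34.5 and 18.9 (log2FC 5.99 ± 0.57). The ubiquitin-conjugating enzyme NCU05592 was at 70.3, 109 and 101 CPM against 1.44, 1.45 and 2.68 (log2FC 5.62 ± 0.52). The ferric reductase NCU00023 had a log2FC of 4.30 ± 0.47.

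Transcripts with the Ssd1-type motif were called higher more often than the background share. Of 307 tested, 29 were higher (9.45%, against 3.23% of all features), and the median log2FC was 0.26 against -0.03. With protein-coding counts as library size the shares were 4.89% and 1.21%. With the complete motif, 2 of 12 were higher. The other 190 of the 219 higher transcripts have no site in that table, and 278 of the 307 motif-bearing transcripts were not called. Of the 29 sites in higher transcripts, 11 differed from the motif at position 9 and 6 at position 3, while among the 324 sites of all tested transcripts 60 differed at position 9 and 31 at position 3. No site with a mismatch at position 8 or 11 was in a higher transcript, of 26 and 27 such sites tested. With 29 of all 324 sites in higher transcripts, few would be in any case. Differences between positions were not tested.

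On the lower side, 5 transcripts had an adjusted p under 0.05 without the fold limit (0.0737% of all features). They include the endoplasmic reticulum chaperone BiP, grp78, at 5.16, 7.41 and 7.49 CPM against 27.9, 12.7 and 12.7 (log2FC -1.41 ± 0.38), and the protein disulfide-isomerase NCU09223, which helps secreted proteins fold, at 2.63, 3.23 and 4.39 against 16.8, 7.94 and 8.01 (log2FC -1.67 ± 0.41). In both the strains did not overlap, and wild-type replicate 1 was the highest. The oxidoreductase NCU00260, the dienelactone hydrolase NCU02124 and the unannotated NCU06315 had log2FC of -1.36, -1.56 and -1.43. Each of the 5 missed the threshold without at least 1 library from each strain (edgeR adjusted p up to 0.206 for grp78, without wild-type replicate 1).

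With Nikkomycin Z, 580 transcripts were higher in GUL-1-GFP over wild-type pull-downs (8.55%). At the same thresholds 361 were lower there, against 0 in standard medium. The 580 include 178 of the 219 from standard medium, which is 81.3% of the latter and 30.7% of the former. Of the 219, 217 had a log2FC above 0 in these libraries, with a median of 3.52. The difference between media was tested as an interaction in edgeR, and it passed for 0 features at an adjusted p under 0.05, with 1128 at an unadjusted p under 0.05.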

How the data were processed

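The authors deposited raw counts, whole numbers per gene for 10592 features in 22 libraries. Per the paper, reads were trimmed, aligned with Tophat and tallied on exons with HTSeq, whereas the submitters' processing notes name CASAVA 1.8.2, HISAT2 2.1.0 and StringTie 1.3.3b, so the counter is not settled. The genome build is not given in the sources used here. Reads mapping to several places were dropped, per the paper, which lowers counts of near-identical genes. Symbols came from RefSeq (assembly NC12, 10590 of 10592 identifiers matched) and product names from the study's supplementary tables, of which 1 was read in part only and served for names alone, not for lists.

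The 12 pull-downs of both media were fitted in 4 groups with edgeR 4.0.16 in R 4.3.3 (TMM, filterByExpr with a minimum count of 10, quasi-likelihood test), and the contrast of the 3 GUL-1-GFP and 3 wild-type libraries of the standard medium was taken. The SE of a log2FC is its size divided by the root of F. DESeq2 1.42.0 was an alternative. Nothing in the labels says that replicates came from separate cultures, so p-values measure only the spread between these samples. Function lists were built from RefSeq symbols and product names and do not hold every transcript of a function. Members and lists were chosen with earlier results of these data known; lists are described by counts and medians, without a test.

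Genes were named by a rule: gul-1, ccg-1 and his-3; the 12 annotated and the 4 of any kind with the smallest p among higher transcripts; up to 3 higher members per list, all of them in the 2 cell wall lists; the transcripts the study names; and up to 8 motif-bearing ones. Since no transcript was lower, the 5 without the fold limit were named instead, and abundant transcripts were added after seeing their values. The fit was tested on simulated data. A small number of values for single transcripts named by this rule are not reported here.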

Additional observations from a re-analysis of the deposited data

Results flagged for a closer look

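The input libraries stood outside the comparison of pull-downs, and values in them lay above the wild-type level. Counted over protein-coding genes alone and scaled as CPM, gul-1 was at 3327 and 12150 in inputs from the tagged strain and at 179.5 and 792.6 in those from the wild-type. The 219 transcripts called higher took 9.61% and 9.76% of protein-coding counts in the tagged-strain inputs and 6.46% and 5.69% in wild-type inputs. With 2 libraries per strain no test was made, and the part of this difference in the pull-down result was not tested.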

How the results depend on the processing

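Of 6780 features, 219 were higher. The count was 212 with TMMwsp, 209 with DESeq2 factors, 239 with total counts, 215 without a filter, 224 in DESeq2 and 179 with all 22 libraries in the fit. It was 136 with the 6 libraries alone, all of them among the 219, 328 with a log2FC over 1 or no fold limit, 164 when tested against a log2FC of 1, and 160 to 246 with libraries left out in turn. With protein-coding counts as library size it was 82, with 1093 lower and a median log2FC of -1.58, against 0.88 with total counts. Lower transcripts numbered 3 in DESeq2, 5 without a fold limit or with a log2FC over 1, and 0 to 45 with libraries left out in turn. The cause of these differences was not tested.

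Under protein-coding scaling the higher members were 15 of motif-bearing transcripts, 5 of polysaccharide breakdown, 3 of cell wall proteins, 2 each of G protein signalling, the cell wall transcripts named by the study, vesicle traffic and kinases, 1 each of wall enzymes, mannosylation and GPI anchoring, the COT-1 complex and clock genes, and 0 of the other lists that held any. Under total counts redox defence held 1 and the TCA cycle 2. Of transcripts with the complete motif 16.7% were higher. With protein-coding scaling os-4 turned to a log2FC of -0.38 and his-3 to -1.32. With total counts ccg-1 turned to 1.10. With libraries left out in turn ccg-1 ranged from -2.40 to 0.61 and his-3 from -0.32 to 0.87. Of 1171 values of single named transcripts under an alternative, 1040 kept direction and call and 130 kept direction only.

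Whether the replicate numbers pair the libraries is not settled. Deviations of same-numbered libraries correlated at 0.507, 0.406 and 0.0214 across features. Those of differently numbered libraries ranged from -0.581 (GUL-1-GFP replicate 1 with wild-type replicate 2) to 0.304. The latter was GUL-1-GFP replicate 3 with wild-type replicate 2, the best match of that GUL-1-GFP library. With the replicate block 215 transcripts were higher, 212 of the 219 among them, and 1 lower. NCU09223, grp78, NCU02124 and NCU06315 then missed the threshold. A replicate block within medium, chosen after seeing the data, gave 239 higher, 214 of the 219 among them, and 5 lower. Depth limits low transcripts, since the wild-type libraries held as few as 257726 protein-coding counts.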
